A study of Mus musculus with 4 samples.

Results

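Fgf18, Fgf5, Fgf7, Fgf10, Fgf1, Fgf2, Fgfr1, Fgfr2, Fgfr3 and Spry2 are the fibroblast growth factor (FGF) ligands, receptors and feedback inhibitor that are linked to the hair cycle. They were taken as every row of the deposited value table that the platform annotation assigned to exactly 1 of these symbols. All 10 genes were found, each with 1 row, out of 19935 genes that had a row of their own. The study measured bulge stem cells of the hair follicle, sorted from skin for CD34 together with alpha6 integrin, on 4 one-colour arrays. Of these, 2 arrays came from male CD-1 mice injected intraperitoneally with CSA at 100 mg/kg for 3 days and 2 from male CD-1 mice injected with vehicle over the same days, and all mice were 56 days old and in the second telogen, the resting phase between growth periods. CSA is left unexplained in the labels. In studies of calcineurin it stands for cyclosporine A, a drug that blocks this phosphatase and so keeps NFAT transcription factors out of the nucleus. The replicates are called biological, and the number of mice behind each sample is not stated. The title concerns calcineurin, Nfatc1 and the quiescence of skin stem cells.

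FGF ligands act through receptor tyrosine kinases, with heparan sulfate as a coreceptor, and pass their signal to Ras and the MAP kinases. Fgf18 is made in the telogen bulge and is known for holding the follicle at rest. Fgf5 ends the growth phase, and mice without it have long hair, while Fgf7 and Fgf10 come from the dermal papilla and favour the start of growth. Fgf1 and Fgf2 lack the usual signal for secretion. Sprouty proteins such as Spry2 dampen the pathway in turn.

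The values are on a log scale taken as log2, and the authors set each row relative to a baseline, which is not known. What is read off is thus a distance from that baseline and no measure of RNA amount, so levels of different genes cannot be compared. Array medians over all 28815 rows lay between -0.02 and 0.06. The arrays numbered 2 of both groups resembled each other most (Pearson r 0.52 over rows, which are not independent), and other pairs reached at most 0.17. Of 12 bulge markers 10 stood above the baseline on all 4 arrays. Cd34, used for the sort, was 1.75 and 3.60 in CSA cells, against 4.05 and 4.25 in vehicle cells. Itga6, the other sort marker, was -0.70 and -0.53 in CSA cells, and of the vehicle arrays replicate 2 alone was above 0 (0.08). In bulk samples such as these, fewer cells of a type and less RNA per cell cannot be told apart.

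The stretch upstream of the gene start is shown for 3 of the genes, because the treatment is aimed at NFAT factors, known to bind the core GGAAA, which reads TTTCC on the opposite strand. Fgf18 is the ligand farthest above the baseline, Fgf7 a ligand near it, and Spry2 the gene with the most matches among the 8 genes searched. Each sequence covers 250 bases before the gene start, read 5′ to 3′ on the strand of the gene, from RefSeq on GRCm38.p6, with matches to the core on either strand in capitals. The positions are chr11:33147401-33147650 (minus strand) for Fgf18, chr2:126034408-126034657 (plus strand) for Fgf7 and chr14:105896820-105897069 (minus strand) for Spry2.
Fgf18: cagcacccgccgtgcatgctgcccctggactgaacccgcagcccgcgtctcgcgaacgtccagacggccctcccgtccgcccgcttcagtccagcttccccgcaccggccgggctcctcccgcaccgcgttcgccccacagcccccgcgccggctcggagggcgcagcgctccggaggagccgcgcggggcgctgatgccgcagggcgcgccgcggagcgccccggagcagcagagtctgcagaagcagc
Fgf7: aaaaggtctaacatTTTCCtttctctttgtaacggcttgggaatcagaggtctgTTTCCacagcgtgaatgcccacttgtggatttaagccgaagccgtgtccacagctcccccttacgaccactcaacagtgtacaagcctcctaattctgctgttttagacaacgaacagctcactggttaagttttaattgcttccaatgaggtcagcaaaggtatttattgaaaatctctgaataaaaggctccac
Spry2: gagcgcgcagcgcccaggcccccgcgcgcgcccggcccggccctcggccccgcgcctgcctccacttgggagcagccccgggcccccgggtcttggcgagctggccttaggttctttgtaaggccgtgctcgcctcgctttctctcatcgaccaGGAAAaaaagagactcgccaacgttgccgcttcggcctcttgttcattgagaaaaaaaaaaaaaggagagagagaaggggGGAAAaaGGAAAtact

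The Fgf18 stretch held no match and was rich in G and C (77.2%, against a median of 52.4% over 32851 such stretches). The Fgf7 stretch had a G and C share of 43.6%, and its 2 matches began 236 and 196 bases before the gene start. The Spry2 stretch had 3 matches, which began 96, 16 and 9 bases before the start. Of all stretches of this length 55.6% held at least 1 match, and of the 9 stretches listed for 8 of the genes 5 did. Fgf1 and Fgfr1 had no stretch that was used here. GGAAA contains the letters GGAA at the core of ETS factor sites, so a match does not separate these families, and a match is a description of letters only.

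Against the baseline, 3 of the 10 genes stood above 0 on all 4 arrays (Fgf18, Fgf1 and Fgfr1), as did 3.66% of all rows. Their means over the 4 arrays were at percentiles 99.5, 98.6 and 99.3 of all rows, a rank of distance from the baseline and not of abundance. Fgfr2 had the lowest position, with a mean of -0.39 at percentile 3.44, and was above 0 on 1 array. Fgf5, Fgf7, Fgf10, Fgf2 and Fgfr3 were above 0 on 2 arrays each and Spry2 on 1. For Fgf10 the values of CSA replicate 2 and vehicle replicate 2 were of equal size and opposite sign, and for Fgf7 those of both vehicle arrays were (within 2e-06). The baseline of these rows thus lay midway between those arrays, which held the middle 2 of the 4 values. For Fgf7 and Fgf10 the count of 2 arrays above 0 followed from that baseline.

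**Figure D1:**
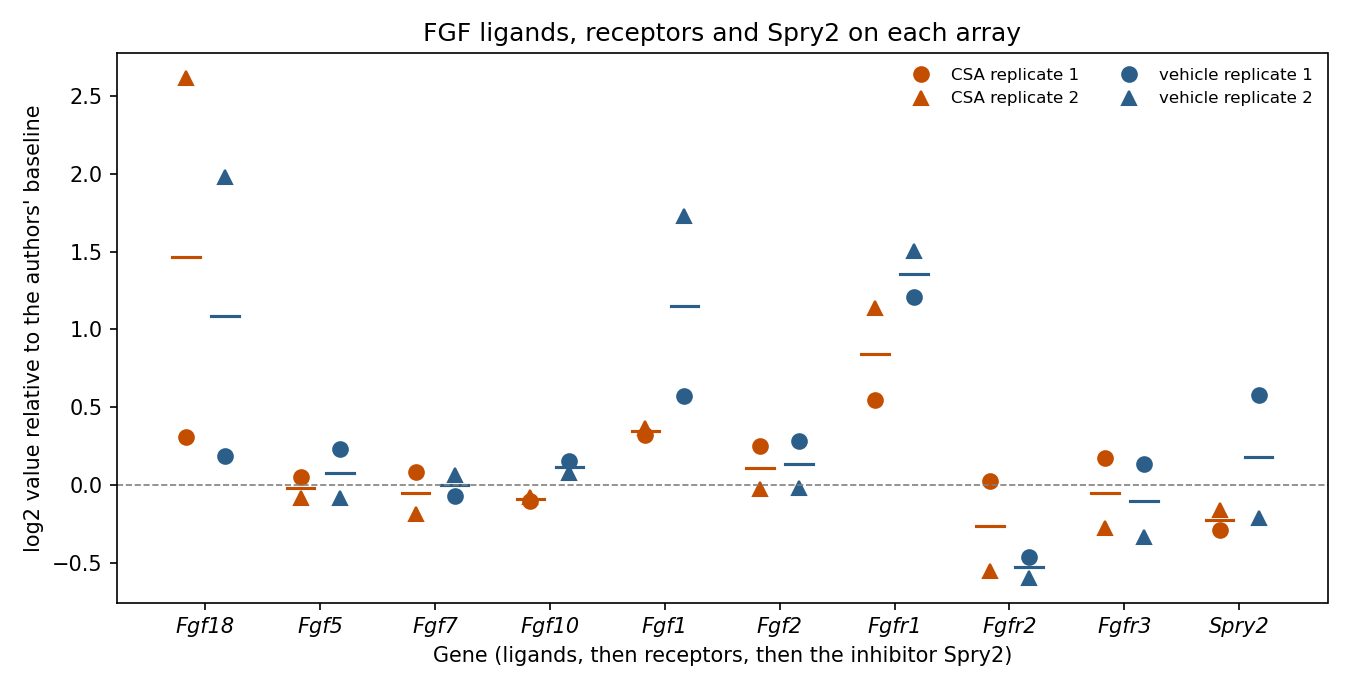
Values of the 10 genes on each array, as log2 relative to the authors' baseline (dashed line). Orange marks CSA and blue vehicle, circles replicate 1 and triangles replicate 2, and short bars are group means; Fgf18 reached 2.61 and 1.98 on the arrays numbered 2 of CSA and vehicle, and the CSA arrays of Fgf1 and Fgfr1 lay below both vehicle arrays.

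Between CSA and vehicle none of the 10 genes passed the test across all rows. limma called 0 of 28815 rows at an adjusted p under 0.05 (0% of rows, smallest adjusted p 0.9999), and at an unadjusted p under 0.05 it gave 845 rows, 2.93% of all, and 0 of the 10 genes. The groups stood at least 1.5-fold apart without overlap for 1 of the 10, Fgf1, and for 5.57% of all rows. Without regard to size, CSA lay below vehicle with no overlap for Fgf1, Fgfr1 and Fgf10, 3 of 10 against 15.2% of all rows, and above it for 0 of 10 against 11.4%; over both directions 26.6% of rows did not overlap. Differences were below 0 for 7 of the 10 genes and for 57.9% of all rows, with a median of -0.07 over the 10 and -0.04 over all rows. With 2 arrays a group, an exact two-sided permutation test of a single gene cannot give a p under 0.333.

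**Figure D2:**
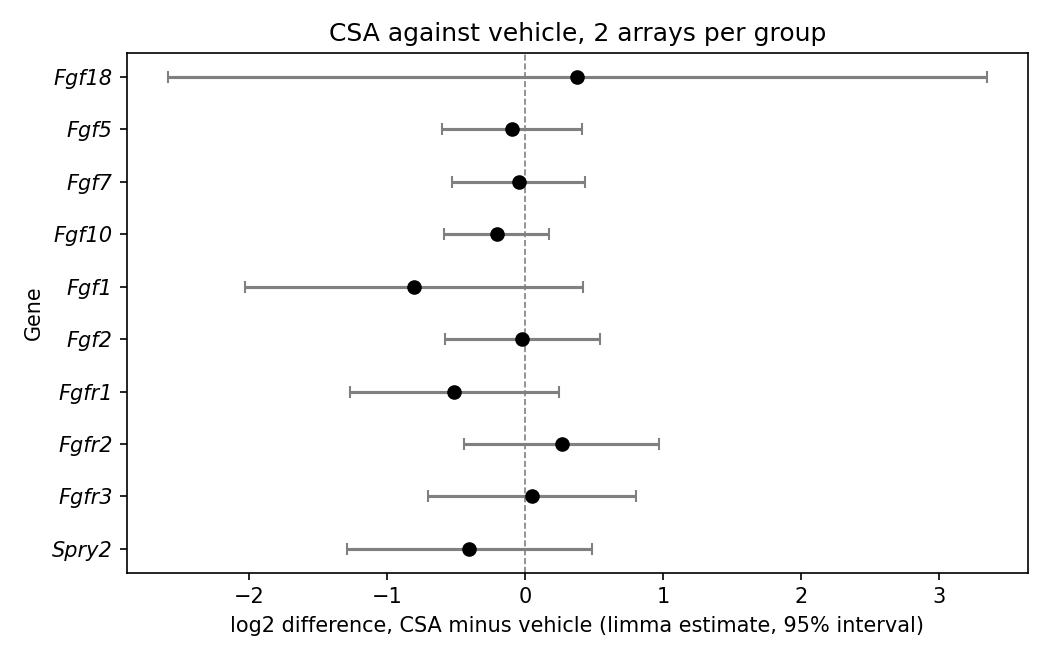
Difference between CSA and vehicle for each of the 10 genes (log2, limma estimate with its 95% interval, 2 arrays per group). All 10 intervals include 0, and that of Fgf18 is the widest, from -2.59 to 3.34.

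Among the ligands, Fgf18 differed more between the arrays of a group than between the groups. It was 0.31 and 2.61 in CSA cells (replicates 1 and 2), against 0.19 and 1.98 in vehicle cells. Within each group the array numbered 2 was far higher, and the groups overlapped. The gap between arrays of one group was 2.30 in CSA and 1.79 in vehicle, at percentiles 99.6 and 98.6 of the same gap over all rows, where the medians were 0.21 and 0.26. The difference between CSA and vehicle was 0.38 ± 1.05 (limma's moderated standard error, n = 2 per group; ± has this meaning throughout), with a 95% interval from -2.59 to 3.34. Its sign turned without CSA replicate 2 (-0.77) and without vehicle replicate 1 (-0.52).

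Markers of the cells in which Fgf18 is made were read beside it. Of the 12 bulge markers 10 were also higher on the array numbered 2 in both groups, and their median was 0.28 and 1.01 in CSA cells, against 0.71 and 1.03 in vehicle cells. Among 5 markers of the inner bulge layer, which is known to carry Fgf18 and Bmp6 at telogen, 1 was higher on the array numbered 2 in both groups. That list's median was 0.41 and 0.02 in CSA cells, against 0.26 and 0.01 in vehicle cells. Krt6a, a keratin of that layer, was 1.66 and 1.75 in CSA cells, against 1.40 and 2.05 in vehicle cells. Bmp6 was 1.23 and 0.02 in CSA cells, against 0.26 and 0.01 in vehicle cells. It was lower on the array numbered 2 in both groups, where Fgf18 was higher, and stood far above the baseline on CSA replicate 1 alone. The part of these cells in the Fgf18 values was not tested.

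Fgf1, a ligand that binds all the FGF receptors, had the largest difference of the 10. It was 0.32 and 0.37 in CSA cells, against 0.58 and 1.73 in vehicle cells. Both CSA arrays lay below both vehicle arrays, and vehicle replicate 2 stood far above the other 3. The difference was -0.81 ± 0.44 (95% interval from -2.03 to 0.42, limma adjusted p 0.9999, unadjusted 0.139), larger in size than that of 95.7% of rows. It was -0.23 without vehicle replicate 2, -1.39 without vehicle replicate 1, and -0.79 and -0.83 without CSA replicate 1 and 2.

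Like Fgf1, most lists of cell type markers had a median difference below 0. Over all rows 57.9% of differences were below 0. All 8 fibroblast markers, all 6 endothelial markers and all 6 markers of differentiated epidermis had differences below 0, with medians of -0.13, -0.14 and -0.79. After quantile normalization 2 of the 8 fibroblast markers were above 0. None of the 20 passed. Their lists were highest on vehicle replicate 1 (medians 0.10, 0.28 and 0.43), as was the median over all rows (0.06). They were not highest on vehicle replicate 2 (-0.02, -0.01 and -0.49), where Fgf1 was highest. Medians were also below 0 for the bulge (-0.33), immune cells (-0.19), dermal papilla (-0.09), adipocytes (-0.06) and melanocytes (-0.02). Only the lists for the inner bulge (3 of 5 higher, median 0.11) and the hair germ (4 of 7 higher, median 0.02) lay on the other side. The part of these cells in the Fgf1 difference was not tested.

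Fgf10, a dermal papilla ligand of the epithelial form of Fgfr2, lay close to the baseline with little spread. It was -0.10 and -0.08 in CSA cells, against 0.16 and 0.08 in vehicle cells. The groups did not overlap, and the gaps within groups of 0.02 and 0.08 (CSA and vehicle) were small beside the medians over all rows. The difference was -0.21 ± 0.14 (95% interval from -0.59 to 0.17, limma unadjusted p 0.203), and it stayed between -0.25 and -0.17 with any 1 array left out. Fgf7, the other papilla ligand of that receptor form, was 0.09 and -0.18 in CSA cells, against -0.07 and 0.07 in vehicle cells. The groups overlapped, with a difference of -0.05 ± 0.17 (95% interval from -0.53 to 0.43) that turned to 0.09 without CSA replicate 2 and 0.02 without vehicle replicate 2.

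Dermal papilla cells should not pass a sort for bulge cells, and their markers lay on either side of the baseline. Crabp1 was -0.11 and 2.80 in CSA cells, against 1.22 and 1.40 in vehicle cells, and Rspo3 was -0.51 and -0.61 in CSA cells, against 0.19 and -0.55 in vehicle cells. Of 11 measured markers 1 was above 0 on all arrays, and the median was -0.01 and -0.11 in CSA cells, against 0.19 and -0.09 in vehicle cells. Differences were below 0 for 9 of the 11 (8 after quantile normalization), with Corin at 0.07 and -0.25 in CSA cells, against 0.15 and -0.15 in vehicle cells. Hhip, a hedgehog inhibitor that other cells also make, was -0.09 and -0.12 in CSA cells, against 0.38 and 0.64 in vehicle cells. Whether papilla RNA bears on the Fgf10 values was not tested.

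Fgf5, the ligand that ends the growth phase, was near the baseline in these telogen cells. It was 0.05 and -0.08 in CSA cells, against 0.24 and -0.08 in vehicle cells. The arrays numbered 2 were almost equal, and the difference of -0.09 ± 0.18 (95% interval from -0.60 to 0.42) turned to 0.06 without vehicle replicate 1. Fgf2, a ligand stored in the matrix, was 0.25 and -0.03 in CSA cells, against 0.29 and -0.02 in vehicle cells. Its arrays parted by number and hardly by treatment, and the difference of -0.02 ± 0.20 (95% interval from -0.58 to 0.54) turned to 0.03 under quantile normalization and to 0.007 once each array was centred on its median. It was also above 0 without CSA replicate 2 (0.12) and without vehicle replicate 1 (0.13).

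Among the receptors, Fgfr1 stood high above the baseline and lower in CSA than in vehicle. It was 0.55 and 1.13 in CSA cells, against 1.21 and 1.504 in vehicle cells. The groups did not overlap, though CSA replicate 2 and vehicle replicate 1 were close. The difference was -0.51 ± 0.27 (95% interval from -1.27 to 0.24, limma adjusted p 0.9999, unadjusted 0.131), a CSA over vehicle ratio of 0.70. It stayed below 0 with any 1 array left out, from -0.81 without CSA replicate 2 to -0.22 without CSA replicate 1. The bulge markers were also lower in CSA for 10 of 12 (9 after quantile normalization, median difference -0.33, and -0.03 without CSA replicate 1), and their part in the Fgfr1 difference was not tested.

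Fgfr2, whose epithelial splice form receives Fgf7 and Fgf10, was below the baseline on 3 of the 4 arrays. It was 0.03 and -0.55 in CSA cells, against -0.46 and -0.59 in vehicle cells. CSA replicate 1 alone stood apart, and without it the difference of 0.26 ± 0.25 (95% interval from -0.44 to 0.97) was -0.03. Fgfr3, which is expressed in keratinocytes and limits bone growth, was 0.17 and -0.27 in CSA cells, against 0.14 and -0.33 in vehicle cells. The arrays parted by number, with gaps of 0.44 in CSA and 0.47 in vehicle, and the difference was 0.05 ± 0.27 (95% interval from -0.70 to 0.80), -0.17 without CSA replicate 1 and -0.19 without vehicle replicate 2. Each receptor gene had 1 row, so its splice forms, which decide the ligands it binds, were not separated.

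Spry2, the feedback inhibitor, was -0.28 and -0.16 in CSA cells, against 0.58 and -0.21 in vehicle cells. Vehicle replicate 1 stood alone above the baseline, and vehicle replicate 2 lay between the CSA arrays. The difference of -0.40 ± 0.32 (95% interval from -1.29 to 0.48, limma unadjusted p 0.271) came to -0.01 without vehicle replicate 1 and to -0.80 when vehicle replicate 2 was left out. The median over all rows was also highest on vehicle replicate 1 (0.06). Lists for differentiated epidermis, endothelium, fibroblasts, dermal papilla, immune cells and adipocytes had their highest medians there too. Those for the bulge, inner bulge, hair germ and melanocytes did not.

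Over the 10 genes, the array numbered 2 was higher in both groups for Fgf18, Fgf1 and Fgfr1, and lower in both groups for Fgf5, Fgf2, Fgfr2 and Fgfr3. That is 3 and 4 of 10, against 20.6% and 42.0% of all rows. The 3 genes above the baseline on all arrays were the same 3 that were higher on the arrays numbered 2. Whether the number stands for a shared day or batch is not stated in the labels.

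**Figure D3:**
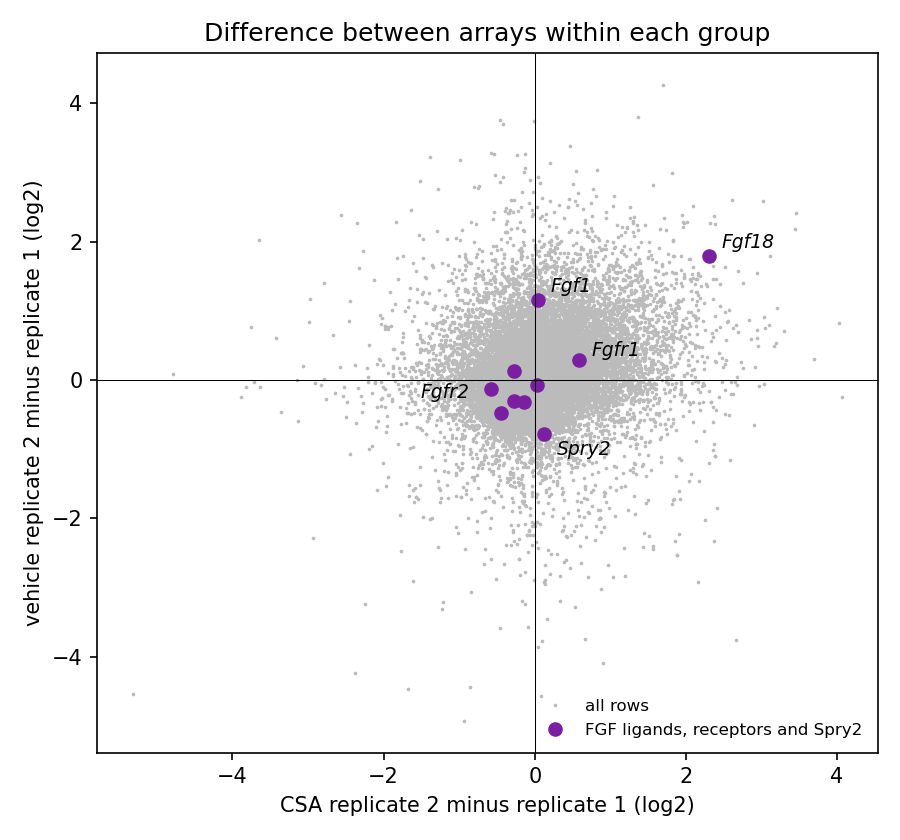
Each point is a row, with CSA replicate 2 minus replicate 1 across and vehicle replicate 2 minus replicate 1 upwards (both log2). Grey points are all 28815 rows and purple points the 10 genes, 5 of them named. Fgf18 lies far to the upper right at 2.30 and 1.79, and the other 9 lie nearer the middle. Among these, Fgf1 lies high at 0.04 and 1.15, its vehicle gap at percentile 94.9 of all rows.

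The genes with 4 array values closest to those of Fgf18, by Euclidean distance over the 4 arrays among all named rows, were Kcnk2, St6galnac5 and Phlda1. Kcnk2, a potassium channel gene, was at a distance of 0.52, with 0.60 and 2.74 in CSA cells, against 0.59 and 2.05 in vehicle cells. The sialyltransferase gene St6galnac5 was at 0.74 and Phlda1 at 0.89. For Fgf1 they were Glrb, a glycine receptor subunit (0.41), the collagen gene Col6a1 (0.42) and the amino acid transporter gene Slc36a4 (0.42). Glrb was 0.04 and 0.55 in CSA cells, against 0.37 and 1.65 in vehicle cells. With 4 arrays such a likeness is a description of these samples only.

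The rest of the pathway was read from 6 lists with 72 of 79 genes measured. Of these 72, 0 passed by limma over all rows, 1 had an unadjusted p under 0.05 (Ndst2), 30 had differences above 0 and 42 below, and the median was -0.04, as over all rows. The groups were 1.5-fold apart without overlap for 3 higher (Fgfbp1, Hs2st1 and Braf) and 3 lower (Flrt2, Ext1 and Dusp6) in CSA (3 of 72 each), against 3.62% and 1.96% of all rows.

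**Figure D4:**
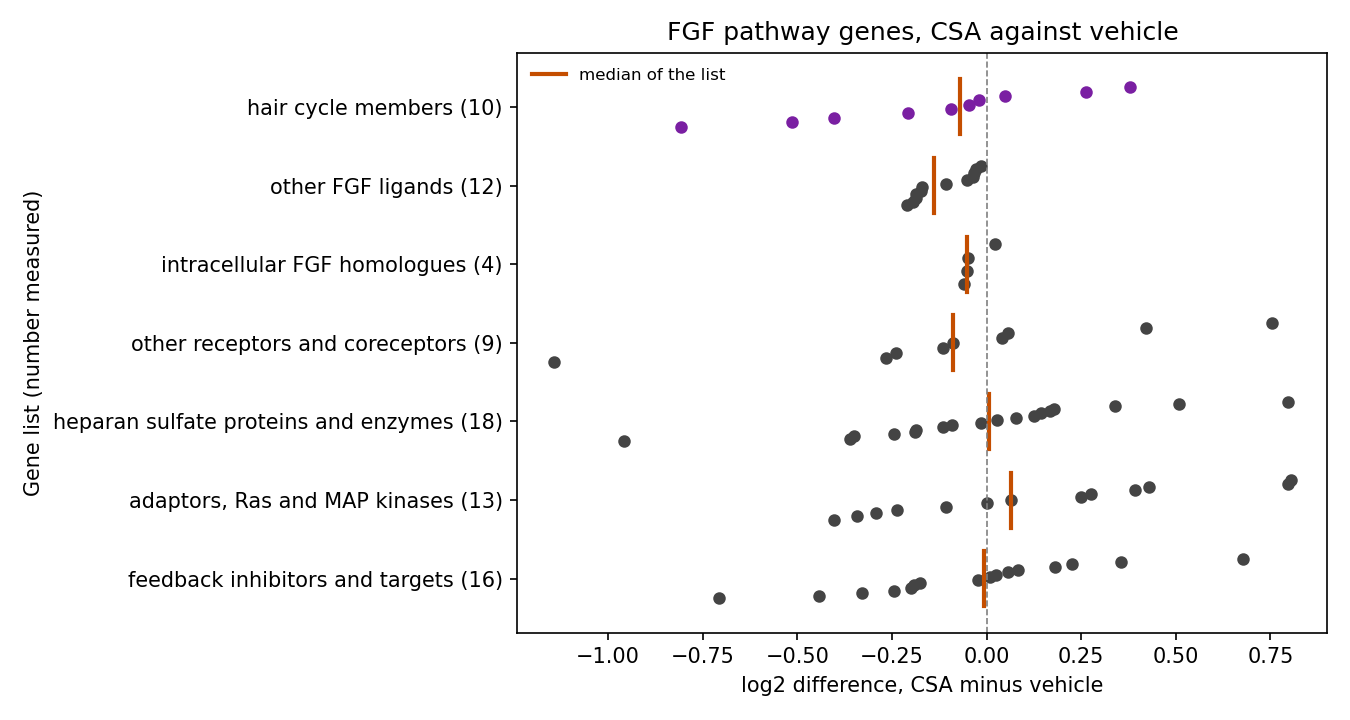
Difference between CSA and vehicle (log2) for the 10 genes and for 6 lists of other FGF pathway genes. Points are genes, spread upwards by rank, and orange bars are list medians; medians lie between -0.14 and 0.06, and the other FGF ligands lie within -0.21 and -0.01.

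The 12 other secreted FGF ligands stayed near the baseline, with no row above or below 0 on all 4 arrays. All 12 had differences below 0 (median -0.14), and after quantile normalization 7 did (median -0.12). Without CSA replicate 2 the median was 0.03. All 12 were also lower on the array numbered 2 in both groups, against 42.0% of all rows. The 4 with the largest moderated t were Fgf21 at -0.19 ± 0.16, Fgf3 at -0.19 ± 0.17, Fgf23 at -0.19 ± 0.18 and Fgf8 at -0.21 ± 0.19. Fgf21 was at -0.08 without CSA replicate 2, and without vehicle replicate 1 Fgf3 was at -0.05, Fgf23 at -0.05 and Fgf8 at -0.03. The intracellular homologues Fgf11, Fgf12, Fgf13 and Fgf14, which are not secreted and do not signal as the ligands do, lay between -0.06 and 0.02, with a median of -0.05 that turned to 0.01 after quantile normalization.

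Of 9 other receptors and coreceptors 4 were higher and 5 lower. Flrt2, a membrane protein of a family that binds FGF receptors, was -0.39 and 0.88 in CSA cells, against 1.27 and 1.51 in vehicle cells, a difference of -1.14 ± 0.48 that was -0.51 without CSA replicate 1. Fgfbp1, a secreted carrier that frees FGFs from the matrix, went the other way, with -0.36 and 0.34 in CSA cells, against -0.73 and -0.79 in vehicle cells (0.75 ± 0.28, and 0.40 without CSA replicate 2). The groups did not overlap for either gene and overlapped for the other 7 of the list. Over all rows 26.6% did not overlap. The decoy receptor gene Fgfrl1 differed by -0.27 ± 0.21, which was -0.06 without vehicle replicate 1, and Fgfr4 by -0.24 ± 0.22, which was -0.04 without CSA replicate 2.

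Heparan sulfate genes split evenly, 9 higher and 9 lower, and the list's median of 0.01 turned to -0.03 under quantile normalization. Ext1, which builds the heparan sulfate chain, was -0.86 and 0.36 in CSA cells, against 0.57 and 0.84 in vehicle cells (-0.96 ± 0.47, and -0.35 without CSA replicate 1). Ndst2, which sulfates the chain, was 0.33 and 0.29 in CSA cells, against -0.33 and -0.07 in vehicle cells (0.51 ± 0.16, limma unadjusted p 0.0364). For neither gene did the groups overlap. In the list of 18 this held for 2 genes higher and 5 lower in CSA, against 11.4% and 15.2% of all rows. The epimerase gene Glce differed by -0.35 ± 0.15 and the glypican gene Gpc4 by -0.36 ± 0.20, which was -0.18 without vehicle replicate 1.

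Downstream, 8 of 13 measured adaptors and kinases were higher (7 after quantile normalization, median 0.06). Braf, a kinase that Ras activates, was 1.05 and 0.56 in CSA cells, against -0.29 and 0.29 in vehicle cells (0.80 ± 0.30, and 0.52 without vehicle replicate 1). Map2k1, the kinase below it, differed by 0.43 ± 0.25, or by 0.23 with CSA replicate 2 left out and 0.21 with vehicle replicate 1 left out. The Ras activator gene Sos2 differed by 0.80 ± 0.53, or by 0.46 with CSA replicate 1 left out and 0.16 with vehicle replicate 1 left out. Gab1, a docking protein, was lower at -0.26 and -0.41 in CSA cells, against 0.09 and 0.04 in vehicle cells (-0.40 ± 0.14).

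Feedback inhibitors and targets split 8 and 8, with a median of -0.01 that turned to 0.02 once each array was centred on its median. Dusp6, the phosphatase that FGF signalling induces against the MAP kinases, was -0.87 and -0.28 in CSA cells, against 0.36 and -0.09 in vehicle cells (-0.71 ± 0.30, and -0.41 without CSA replicate 1). Spry4, of the same family as Spry2, was -0.04 and -0.15 in CSA cells, against 0.26 and 0.21 in vehicle cells (-0.33 ± 0.14). The related inhibitor genes Spred1 and Spred2 went opposite ways, at -0.44 ± 0.21 (-0.21 without vehicle replicate 2) and 0.35 ± 0.16 (0.23 without vehicle replicate 1). For these 4 genes, named for the largest moderated t of the list, the groups did not overlap. In the list of 16 this held for 2 genes higher and 6 lower in CSA, against 11.4% and 15.2% of all rows. None of the 4 passed by limma (adjusted p 0.9999 each).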

How the data were processed

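The deposited series matrix holds log2 values of 4 arrays, set by the authors relative to an unknown baseline. The log base is not named and was taken as 2. The handling of background and scaling is not stated there or in the labels. The build mm8 stands alone in the submitters' processing notes. Per the labels' protocols, 20 ng of total RNA was amplified in 1 round. Groups and replicate numbers came from the titles. No scanner values were used, so the number of arrays limits the precision.

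limma 3.58.1 in R 4.3.3 (lmFit, eBayes without trend, no block, no filter, two-sided) was run on all 28815 rows, with Benjamini-Hochberg adjustment and a threshold of 0.05. On simulated data its median estimate was checked against the size of planted differences. How many planted differences passed is not reported here. The members and lists were chosen with earlier results of these data known. Named genes were the 10 members, up to 4 genes per pathway list with the largest moderated t, and the 3 nearest genes of Fgf18 and of the member with the largest difference. Hs2st1 and the marker genes were named outside this rule, after their values were seen. A gene with several rows was represented in lists by the row with the highest mean. Of the pathway lists 7 genes lacked a row of their own and were not used here. Each p-value weighs the difference between the groups against the spread between these samples. The number of mice behind each sample is not stated. Alternatives were a mean-variance trend, no moderation, quantile normalization, array centring, 3 other row sets, a replicate block and leaving out each array.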

Additional observations from a re-analysis of the deposited data

How the results depend on the processing

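Across the alternatives limma called 0 rows and 0 of the 10 genes. With all 4 arrays kept, the count at an unadjusted p under 0.05 over all 28815 rows ran from 801 (ordinary test per row) to 1366 (replicate block). With 1 row per gene it was 565 of 19935 rows. The ordinary test per row gave 1 of the 10 genes, Fgf10 (p 0.0367). With 1 array left out the median difference of the 10 genes ran from -0.21 to -0.06, and 2 genes were 1.5-fold apart without overlap each time, where 1 array against 2 overlaps less often by construction. The lone array of a group was then assumed to vary like the others. The 2 genes were Fgf1 and Fgf18 without CSA replicate 1, where 11% of all rows were so apart. They were Fgf1 and Fgfr1 without CSA replicate 2 (13.7% of all rows) or without vehicle replicate 1 (7.58%). Without vehicle replicate 2 they were Fgf18 and Spry2 (15.8%). Of 40 single differences with 1 array left out, 30 kept their sign and 10 turned.

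With 1 array left out, the differences ran from -0.77 to 1.53 for Fgf18, from -0.25 to 0.0644 for Fgf5, from -0.18 to 0.0884 for Fgf7, from -0.17 to 0.13 for Fgf2, from -0.0263 to 0.55 for Fgfr2 and from -0.19 to 0.29 for Fgfr3. Fgf2 also turned under quantile normalization (0.031) and once each array was centred on its median (0.00709). The causes were not tested. Fgfr2 and Fgfr3 fell out under the filter on the 25th percentile of the mean, so it gives no value for them.

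The replicate numbers share only a number in the labels. Deviations of replicates 1 and 2 correlated across rows between the groups (Pearson r 0.22). With the replicate block limma called 0 rows and 0 of the 10 genes, and at an unadjusted p under 0.05 it gave 1366 rows, against 845 without it, and 1 of the 10 genes, Fgfr1 (p 0.0463).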
